A study of Rattus norvegicus with 6 samples.

Results

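The 9 genes described here belong to growth arrest or to p53 feedback, and many of them are known to respond to stress. They are the GADD45 genes Gadd45a, Gadd45b and Gadd45g and the cyclin-dependent kinase (CDK) inhibitors Cdkn1a (p21) and Cdkn1b (p27). The others are the antiproliferative genes Btg1 and Btg2, and the p53 feedback genes Mdm2 and Ccng1. All 9 were taken by name, as all probes whose RefSeq accession belongs to 1 of these genes. Each had 1 probe of 1 spot, so 9 of the 14265 named probes (9 of 13876 named genes) are described. Total RNA of rat myocardium (males of the Wistar strain) was labelled with Cy3 and hybridised to Agilent arrays of 1 colour. The 3 border-zone samples came from infarcts made by ligation of the left anterior descending (LAD) artery and were taken at 6 h from the margin located by a TTC and EB stain (arrays M17, M24 and M25). The 3 sham samples came from the control zone of sham-operated rats, also at 6 h (arrays C4, C5 and C6). No gene was altered and no drug was named in either group, and the age of the rats is not given in the sources used here.

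GADD45 proteins are small acidic nuclear proteins that are induced by DNA damage, cytokines and osmotic stress. They bind PCNA, p21 and the mitotic kinase CDK1, and they activate the kinase MAP3K4 upstream of p38 and JNK. p53 is a transcription factor that induces Cdkn1a, Mdm2, Btg2, Ccng1 and Gadd45a after DNA damage, while Gadd45b and Gadd45g respond mostly to other signals such as NF-kappaB and cytokines. Most adult heart muscle cells have left the cell cycle, so these genes are known in the heart mainly as stress response genes, and dividing cells there are mostly stromal, endothelial or immune cells.

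The arrays were not alike within the groups. Well above background were 74.3% to 78.3% of probes on the border-zone arrays, 73.7% on C4 and only 51.0% and 52.4% on C5 and C6. C4 was read in the same scan as the border zone, while C5 and C6 had a scan each. M25 lay between M17 and M24 for 97.6% of the probes (572 in number) in which those were more than 2-fold apart, so whether it is a separate animal is in doubt. Markers of central nervous tissue stood out on C5 and C6: 7 of 7 measured central neuron markers, 5 of 5 of astrocytes and 5 of 5 of oligodendrocytes were higher on both than on every other array. The summed signal of the neuron markers was -3.56 to -3.26 on border-zone arrays, -1.78 on C4, 1.94 on C5 and 1.96 on C6 (log2 of the sum, relative to the 75th percentile of each array). That of the oligodendrocyte markers was 1.34 to 1.66 on border-zone arrays, 2.40 on C4, 3.48 on C5 and 3.74 on C6. That of the astrocyte markers was 0.10 to 0.55 on border-zone arrays, -0.06 on C4, 2.71 on C5 and 2.94 on C6. All 8 cardiomyocyte markers were well above background on every array, with a summed signal of 9.10 to 9.29 in border zone and 9.21 to 9.66 in sham. With so few arrays the precision is limited. C4 shared the scan of the border zone and had less nervous tissue signal than C5 and C6, so the fold change of each gene below is given also against C4 alone. That fit holds no spread between sham arrays, and its p-values rest on the spread between border-zone arrays only.

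The sequences upstream of the genes that moved are shown first, because p53, stress-activated factors and NF-kappaB are the known inputs of this group. RefSeq promoter windows of the GRCr8 assembly were found for 9 of 9 genes. For each gene the first listed window was taken, and the 250 bases before its annotated start are used. Matches of the 9 genes at any other annotated start were not looked at. Capitals mark any match, on either strand, to 9 motifs: AP-1 (TGANTCA), CRE (TGACGTCA), E-box (CACGTG), the ATF4 element (TGATGNAA), the CCAAT box (CCAAT), the TATA box (TATAAA) and the consensus p53 half-site, kappaB site and CArG box. The 5 genes called higher in the border zone and Ccng1, a p53 target that was not called, are printed 5′ to 3′ on the coding strand.
Gadd45a: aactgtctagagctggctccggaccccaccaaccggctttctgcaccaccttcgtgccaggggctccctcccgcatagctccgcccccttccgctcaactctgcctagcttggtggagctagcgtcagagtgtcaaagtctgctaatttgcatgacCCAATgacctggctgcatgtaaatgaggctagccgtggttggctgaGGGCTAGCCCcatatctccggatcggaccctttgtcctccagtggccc
Gadd45b: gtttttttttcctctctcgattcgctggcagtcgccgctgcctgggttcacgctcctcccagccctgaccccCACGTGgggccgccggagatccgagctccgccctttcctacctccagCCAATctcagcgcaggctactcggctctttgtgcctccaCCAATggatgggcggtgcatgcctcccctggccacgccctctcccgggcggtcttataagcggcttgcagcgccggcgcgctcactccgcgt
Gadd45g: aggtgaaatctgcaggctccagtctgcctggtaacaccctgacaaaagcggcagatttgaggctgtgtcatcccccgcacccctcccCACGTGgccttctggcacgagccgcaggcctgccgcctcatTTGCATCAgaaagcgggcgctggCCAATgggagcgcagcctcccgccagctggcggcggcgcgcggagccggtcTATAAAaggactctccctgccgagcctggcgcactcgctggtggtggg
Cdkn1a: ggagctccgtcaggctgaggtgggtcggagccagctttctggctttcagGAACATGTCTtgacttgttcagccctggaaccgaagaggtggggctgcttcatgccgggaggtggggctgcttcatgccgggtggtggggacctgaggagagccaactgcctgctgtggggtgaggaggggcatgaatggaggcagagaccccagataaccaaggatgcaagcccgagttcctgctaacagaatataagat
Btg2: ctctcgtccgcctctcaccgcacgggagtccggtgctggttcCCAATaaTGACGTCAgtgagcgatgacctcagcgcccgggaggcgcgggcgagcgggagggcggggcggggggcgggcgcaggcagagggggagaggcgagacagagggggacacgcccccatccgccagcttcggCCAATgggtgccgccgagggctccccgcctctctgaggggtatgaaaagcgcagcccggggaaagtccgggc
Ccng1: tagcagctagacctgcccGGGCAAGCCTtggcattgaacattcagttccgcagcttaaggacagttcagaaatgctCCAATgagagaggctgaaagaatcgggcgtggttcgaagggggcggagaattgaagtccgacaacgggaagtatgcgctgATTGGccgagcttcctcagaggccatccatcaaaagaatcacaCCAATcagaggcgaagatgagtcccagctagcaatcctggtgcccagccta
These windows are chr4:97486800-97487049, minus strand (Gadd45a), chr7:9430719-9430968, minus strand (Gadd45b), chr17:13530352-13530601, minus strand (Gadd45g), chr20:7150682-7150931, plus strand (Cdkn1a), chr13:48087691-48087940, minus strand (Btg2) and chr10:25684877-25685126, minus strand (Ccng1).

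A p53 half-site was matched in Gadd45a (GGGCTAGCCC, positions -48 to -39 from the start), Cdkn1a (GAACATGTCT, positions -201 to -192) and Ccng1 (GGGCAAGCCT, positions -232 to -223), and in 6.64% of the 33469 promoters of the same length. Of the 3 genes with this match, 2 were called higher and 1 was not. Gadd45b and Gadd45g both held an E-box, which 5.59% of promoters hold. Btg2 alone held a CRE, against 1.59% of promoters, and Gadd45g alone held the ATF4 element (3.40% of promoters) and a TATA box (12.9%). The CCAAT box was in 7 of the 9 windows and in 34.0% of all promoters. AP-1, kappaB and CArG letters were in 0 of the 9 windows, against 6.34%, 3.54% and 1.5% of promoters. The G and C content was 53.6% (Ccng1) to 72.0% (Btg2) in the 9 windows, against a median of 51.2% over all promoters. A match is a description of letters, and known p53 and kappaB sites of some of these genes lie outside such windows.

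Of the 9 genes, 5 rose in the border zone, 0 fell (Cdkn1b alone was lower, and it passed before adjustment only) and 4 were not called: Gadd45a, Gadd45b, Gadd45g, Cdkn1a and Btg2 rose between 2.10-fold and 5.23-fold. Over the whole array, 19.3% of 17930 probes were called, 9.01% higher and 10.3% lower (limma, Benjamini-Hochberg adjusted p under 0.05). Of the called probes 46.7% were higher, and 67.6% were with median scaling, which turned none of the 5 rises. All 9 probes were well above background on all 6 arrays, so none entered the test through 1 group alone. In 8 of the 9 the border-zone and sham arrays did not overlap, which held for 43.7% of probes tested. Levels are log2 signals minus the 75th percentile of each array, and they are compared between arrays for 1 probe at a time. In bulk myocardium, fewer cells of a type and less RNA per cell cannot be told apart.

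**Figure D1:**
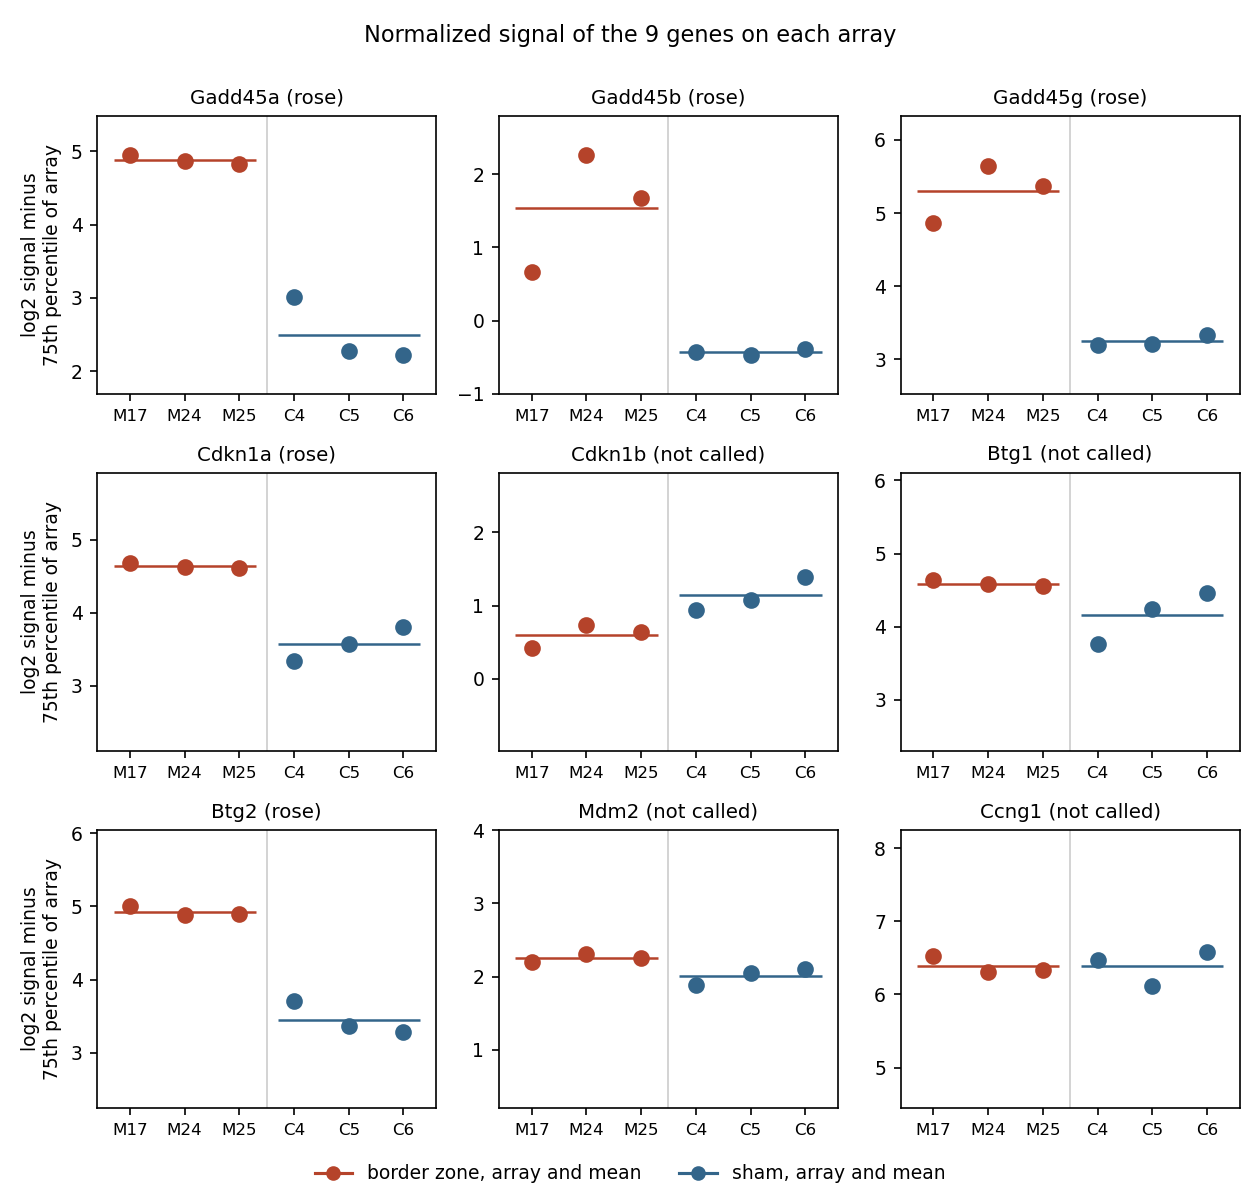
Each panel shows 1 gene, with the 6 arrays on the x axis (border zone in red on the left, sham in blue on the right) and the log2 signal minus the 75th percentile of the array on the y axis; every panel spans the same number of log2 units and horizontal lines are group means of n = 3 arrays. The red points lie above the blue ones for the 3 Gadd45 genes, Cdkn1a and Btg2, and by less for Btg1 and Mdm2. The red points lie below the blue ones for Cdkn1b, spread widely for Gadd45b, and overlap with the blue ones for Ccng1.

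All 3 GADD45 genes rose, each about 4-fold to 5-fold in the mean, but their arrays differed in where the spread lay. Gadd45a, the family member most closely tied to p53 and DNA damage, had levels of 4.95, 4.86 and 4.83 on M17, M24 and M25, against 3.01, 2.27 and 2.21 on C4, C5 and C6. The border-zone arrays were nearly equal (4.88 ± 0.07, SD, n = 3), and the sham mean was 2.5 ± 0.44 (SD, n = 3) with C4 above the mean of C5 and C6 by 0.76. Gadd45a rose 5.23-fold (log2 fold change 2.39 ± 0.23, SE, 95% interval 1.81 to 2.96, n = 3 per group, limma adjusted p = 0.00352) and 3.67-fold against C4 alone (1.88, adjusted p = 0.00998).

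Gadd45b, which is induced by NF-kappaB and TGF-beta and restrains JNK signalling, had levels of 0.66, 2.26 and 1.68 on M17, M24 and M25, against -0.43, -0.47 and -0.39 on C4, C5 and C6. Here the spread was in the border zone (1.53 ± 0.81, SD, n = 3) and the sham arrays were nearly equal (-0.43 ± 0.04, SD, n = 3). M24 exceeded M17 by 1.60, a gap larger in size than that of 99.1% of the probes tested. Gadd45b rose 3.89-fold (1.96 ± 0.40, 95% interval 0.99 to 2.93, limma adjusted p = 0.0246), with a log2 fold change of 1.96 against C4 alone that did not pass (adjusted p = 0.126). The call also ended without M24 (1.60, adjusted p = 0.0585), M25 (1.89, 0.112), C5 (1.94, 0.0788) or C6 (1.98, 0.0593).

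Gadd45g, which binds CDK1 and PCNA and is induced by cytokines, had levels of 4.86, 5.65 and 5.38 on M17, M24 and M25, against 3.20, 3.21 and 3.33 on C4, C5 and C6. As with Gadd45b, M17 was the lowest and M24 the highest border-zone array, 0.79 apart, a gap larger in size than that of 94% of probes. Gadd45g rose 4.13-fold (2.05 ± 0.22, 95% interval 1.52 to 2.57, limma adjusted p = 0.00423), and 4.26-fold against C4 alone (2.09, adjusted p = 0.0356). It kept its call whichever single array was left out.

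Whether the 3 GADD45 genes rose by different amounts was tested on the difference of 2 probes on the same array, which does not depend on how arrays are scaled. Gadd45a minus Gadd45b was 3.35 ± 0.86 in border zone and 2.92 ± 0.45 in sham (SD, n = 3 each), a change of 0.43 (exact two-sided permutation p = 0.60). Gadd45a minus Gadd45g changed by 0.34 (exact p = 0.50) and Gadd45b minus Gadd45g by -0.086 (exact p = 0.80). The arrays overlapped for all 3 pairs. With 3 arrays per group the smallest p this test can give is 0.1, so it could not have called a difference here.

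Of the 2 CDK inhibitors Cdkn1a rose and Cdkn1b was not called. Cdkn1a, the p53 target that blocks cyclin-CDK complexes, had levels of 4.68, 4.63 and 4.62 on M17, M24 and M25, against 3.34, 3.57 and 3.80 on C4, C5 and C6. Cdkn1a rose 2.10-fold (1.07 ± 0.15, 95% interval 0.71 to 1.43, limma adjusted p = 0.00846) and 2.46-fold against C4 alone (1.30, adjusted p = 0.0123). The border-zone arrays differed by less than the sham arrays (4.64 ± 0.03 and 3.57 ± 0.23, SD, n = 3 each). Its call ended without M25 (1.08, adjusted p = 0.0642).

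Cdkn1b, an inhibitor that holds resting cells in G1 and is controlled largely through protein turnover, had levels of 0.43, 0.73 and 0.64 on M17, M24 and M25, against 0.94, 1.08 and 1.39 on C4, C5 and C6. The border-zone arrays lay below the sham arrays without overlap. Its log2 fold change of -0.54 ± 0.16 (95% interval -0.94 to -0.14) did not pass (limma adjusted p = 0.0692, range over its alternatives 0.0295 to 0.485), and it passed only without C4 (-0.64, adjusted p = 0.0295). Against C4 alone it was -0.35 (adjusted p = 0.202). Cdkn1a minus Cdkn1b was 4.04 ± 0.19 in border zone and 2.43 ± 0.05 in sham (SD, n = 3 each), a change of 1.61 with no overlap between the groups. Its exact two-sided permutation p of 0.1 is the smallest that 3 against 3 arrays allow (adjusted over the 6 pairs compared within families, 0.30).

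**Figure D2:**
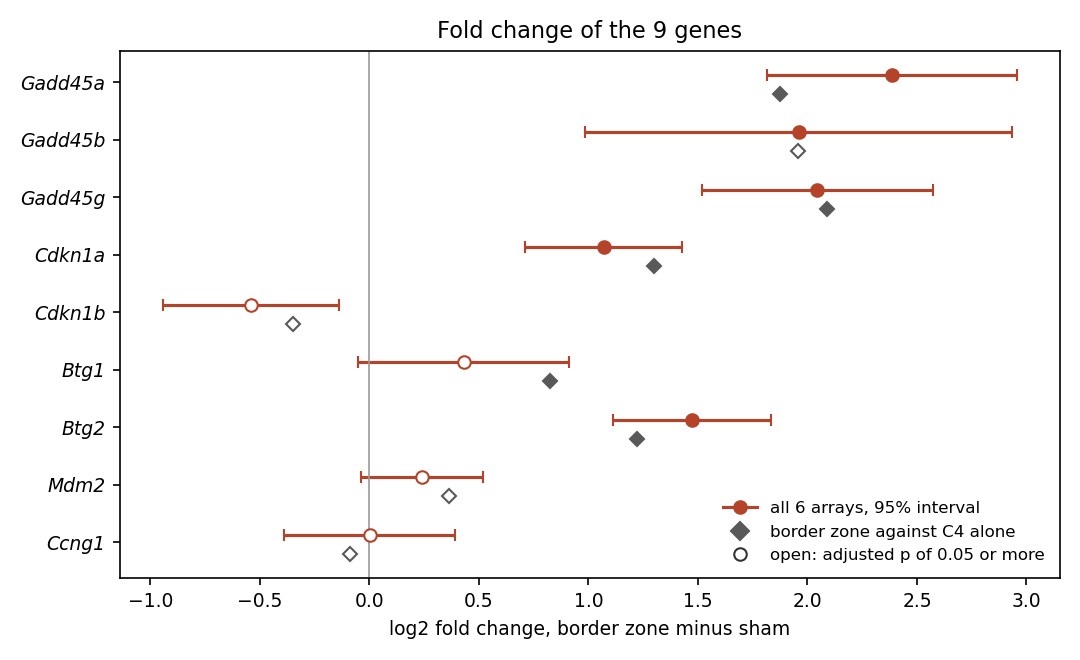
Log2 fold change of each gene (x axis, border zone minus sham) from all 6 arrays with its 95% interval (red circles) and against sham array C4 alone (grey diamonds); open symbols have an adjusted p of 0.05 or more. The 3 Gadd45 genes, Cdkn1a and Btg2 lie right of 0 with intervals that exclude it. Cdkn1b lies left of 0 with an interval that also excludes it, but without a call. Btg1 lies right of 0 with an interval that includes it, and Mdm2 and Ccng1 lie near 0.

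The BTG proteins slow the cell cycle and recruit the CCR4-NOT deadenylase to messenger RNAs. Btg2, an immediate early gene and p53 target, had levels of 5.01, 4.88 and 4.89 on M17, M24 and M25, against 3.70, 3.37 and 3.28 on C4, C5 and C6. Each border-zone array was over 1 log2 unit above every sham array. Btg2 rose 2.78-fold (1.47 ± 0.15, 95% interval 1.11 to 1.83, limma adjusted p = 0.00376) and 2.33-fold against C4 alone (1.22, adjusted p = 0.0151), and it kept its call whichever single array was left out.

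Btg1, a family member that is abundant in resting cells, had levels of 4.64, 4.58 and 4.56 on M17, M24 and M25, against 3.76, 4.25 and 4.47 on C4, C5 and C6. The groups did not overlap, and C6 came closest to the border-zone arrays. Its log2 fold change of 0.43 ± 0.20 (95% interval -0.05 to 0.91) did not pass (limma adjusted p = 0.175). Against C4 alone it was 0.83 and passed (adjusted p = 0.0215), in a fit with no spread between sham animals. Btg1 minus Btg2 was -0.33 ± 0.03 in border zone and 0.71 ± 0.58 in sham (SD, n = 3 each), a change of -1.04 without overlap (exact two-sided permutation p = 0.1, adjusted over 6 pairs 0.30).

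Neither p53 feedback gene was called. Mdm2, the ubiquitin ligase that marks p53 for degradation, had levels of 2.20, 2.32 and 2.25 on M17, M24 and M25, against 1.89, 2.05 and 2.11 on C4, C5 and C6. The groups did not overlap, yet the log2 fold change was 0.24 ± 0.11 and did not pass (95% interval -0.04 to 0.52, limma adjusted p = 0.189; 0.36 against C4 alone, adjusted p = 0.0885). Mdm2 did not pass under any of the 15 alternatives, with log2 fold changes of 0.17 to 0.43.

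Ccng1, cyclin G1, a p53 target that directs the phosphatase PP2A to MDM2, had levels of 6.53, 6.31 and 6.34 on M17, M24 and M25, against 6.48, 6.12 and 6.58 on C4, C5 and C6. The groups overlapped. Its log2 fold change was 0.001 ± 0.16 (95% interval -0.39 to 0.39, limma adjusted p = 0.998), so the interval leaves out changes of the size seen for Cdkn1a. Against C4 alone the log2 fold change of Ccng1 was -0.086. Mdm2 minus Ccng1 was -4.14 ± 0.17 in border zone and -4.37 ± 0.27 in sham (SD, n = 3 each) and overlapped (exact two-sided permutation p = 0.30).

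Calls of the 5 genes depended on which arrays were used. Against C4 alone 5 genes were called higher, with Btg1 in place of Gadd45b, where 15.9% of probes were called in either direction. Without M25, Gadd45a, Gadd45g and Btg2 were called higher, where 2.84% of probes were called. Probes called came to 8.03% without M17, 6.51% without M24, 40.8% without C4, 7.84% without C5 and 13.2% without C6. They came to 16.0% with median scaling, 17.6% with quantile scaling, 12.8% with normexp, 7.42% with no filter on dim probes, 19.4% in the authors' deposited log2 values and 24.7% of genes when probes were averaged. Without M25 and against C4 alone, 0 of the 9 were called by limma (5 had an unadjusted p under 0.05) and 0.424% of probes were. The log2 fold changes there were 1.9 for Gadd45a, 1.89 for Gadd45b, 2.05 for Gadd45g, 1.31 for Cdkn1a and 1.24 for Btg2, with adjusted p of 0.0684 to 0.270. These fits share the border-zone arrays and C4 with the comparison of all 6 arrays and are not separate support.

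**Figure D3:**
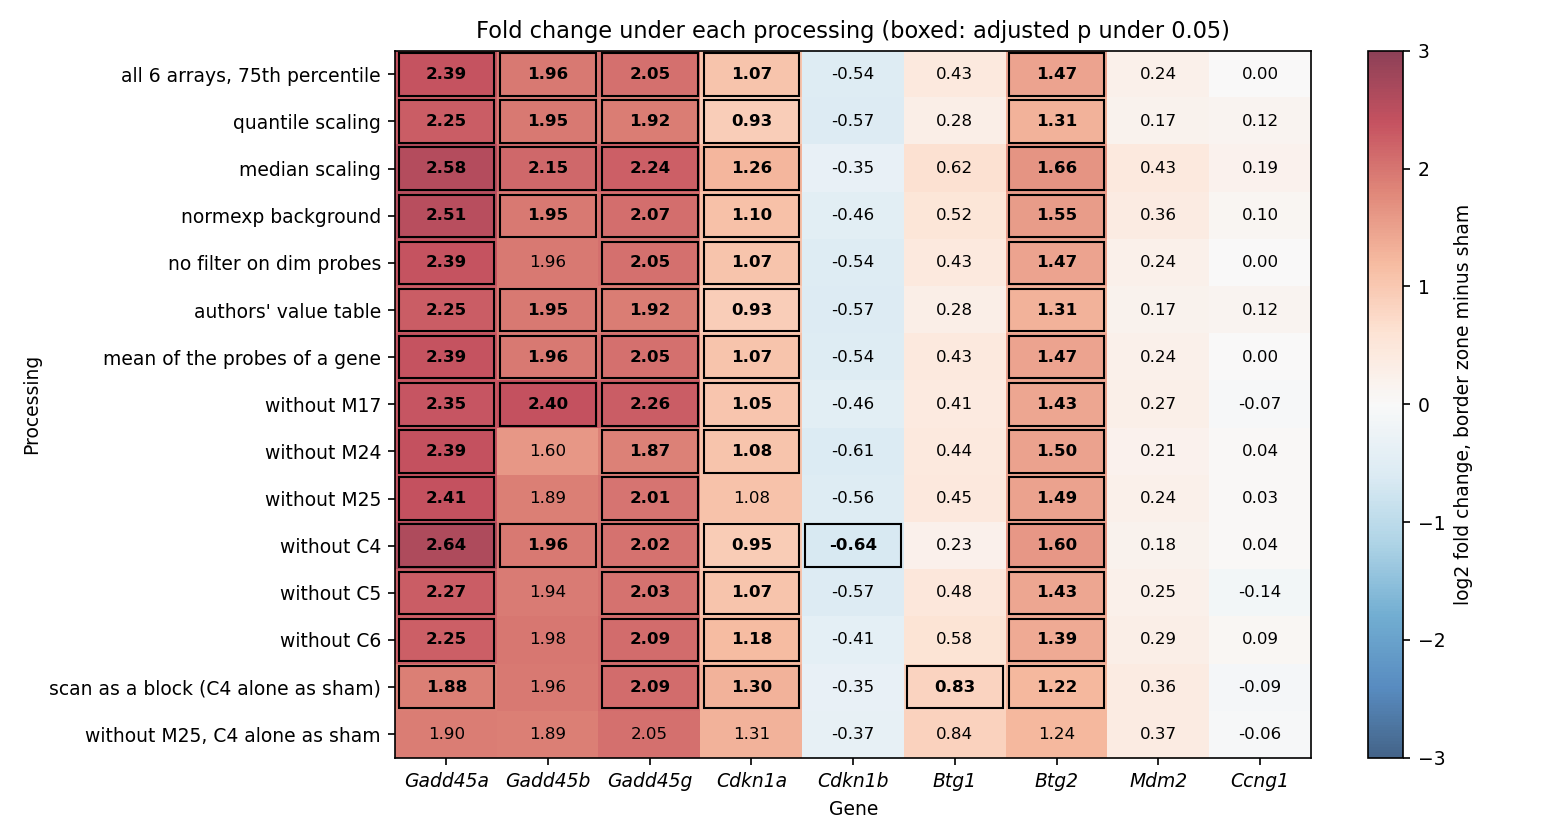
Log2 fold change (border zone minus sham, colour and printed value) of each gene (columns) under each processing (rows); boxed bold values have an adjusted p under 0.05. Gadd45a, Gadd45g and Btg2 are boxed in every row but that without M25 and with C4 as the only sham array, Gadd45b in fewer, and Mdm2 and Ccng1 in none.

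Summed markers of neutrophils and of monocytes and macrophages were higher in border zone, those of smooth muscle were lower, and those of endothelium and fibroblasts overlapped. The summed signal of 5 measured neutrophil markers was 2.14 to 2.28 in border zone and -2.95 to -1.74 in sham (log2 of the sum), and 5 of the 5 were called higher. Only 1 of these 5 was well above background on all 6 arrays, so the others entered the test through 1 group alone. The summed signal of 6 monocyte and macrophage markers was 5.83 to 5.90 in border zone and 4.43 to 4.94 in sham, with 3 called higher and 1 lower. Over all probes tested 9.01% were called higher and 10.3% lower. Endothelial markers summed to 2.85 to 3.07 in border zone and 3.01 to 3.15 in sham, and fibroblast markers to 5.82 to 5.91 in border zone and 5.73 to 6.09 in sham. Smooth muscle markers (2 measured) summed to 1.99 to 2.11 in border zone and 2.39 to 2.73 in sham without overlap, and 1 was called lower. The part of these cells in the rises of the 5 genes was not tested. C4, with less nervous tissue signal than C5 and C6, lay 0.76 above the mean of C5 and C6 for Gadd45a and 0.38 above it for Btg2. It lay below that mean by 0.35 for Cdkn1a, 0.29 for Cdkn1b and 0.59 for Btg1. It was within 0.07 of that mean for Gadd45b and Gadd45g.

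The genes with profiles nearest to 4 of the genes were found by the root mean square difference of centred log2 levels over the 6 arrays, among 11000 named genes. Nearest to Gadd45a were Eif1a (0.13), Krt19 (0.14) and Gas5 (0.16). Nearest to Gadd45b were Icam1 (0.094), Klhl40 (0.11) and Tmem100 (0.16), which share its low M17 and high M24. Nearest to Gadd45g were Enah (0.048), Zfp36 (0.076) and Ugdh (0.097), and nearest to Cdkn1a were Cited2 (0.042), Zmynd19 (0.067) and Nifk (0.079). Within the family, Gadd45g was the 13th nearest gene to Gadd45b (0.24), whereas Gadd45a was the 276th (0.60).

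Among genes controlled by p53 some were called higher and some lower, while the called p53 regulators all rose. Called were 16.7% of p53 regulators and 22.2% of p53 targets of repair, metabolism and arrest, against 21.8% of all named genes tested. Of the 9 tested p53 targets of apoptosis 44.4% were called. Whether any of these shares differs from that of all named genes was not tested. Over all 11001 named genes tested, 9.90% rose, 11.9% fell and the median log2 fold change was -0.047. Of 12 tested p53 regulators 2 rose, 0 fell and 10 were not called, with a median of 0.089, or -0.078 with C4 as the only sham array. Mdm4, a partner of MDM2 that binds and inhibits p53, rose 2.63-fold (1.39 ± 0.16, adjusted p = 0.00542, and 1.08 against C4, adjusted p = 0.0164), and Tp53inp1, a p53 target and cofactor, rose 2.19-fold (1.13 ± 0.24, adjusted p = 0.0279, and 1.41 against C4, adjusted p = 0.0418).

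Of 9 tested p53 target genes of apoptosis, 2 rose, 2 fell and 5 were not called, and the list's median was 0.48, or -0.22 with C4 as the only sham array. The nuclease Aen rose (1.55 ± 0.18, adjusted p = 0.00512, and 1.36 against C4, adjusted p = 0.0329) and so did Bax, a pore-forming protein of mitochondrial apoptosis (0.65 ± 0.17, adjusted p = 0.0446, and 0.40 against C4, adjusted p = 0.0779). Apaf1, the core of the apoptosome, fell (-0.99 ± 0.13, adjusted p = 0.00730, and -1.11 against C4, adjusted p = 0.0266), and the death receptor Fas fell (-0.67 ± 0.14, adjusted p = 0.0265, and -0.47 against C4, adjusted p = 0.0946), with sham signal well above background on 1 of 3 arrays. Of 18 tested p53 targets of repair, metabolism and arrest, 3 rose, 1 fell and 14 were not called, with a median of -0.056. The stress cytokine Gdf15 was well above background on 3 of 3 border-zone arrays and 1 of 3 sham arrays, so it entered the test through the group where it is high, and its fitted value and p rest partly on sham signals not well above background. It was called at least 1.95-fold higher (fitted log2 fold change 2.20 ± 0.47, adjusted p = 0.0286, and 1.92 against C4, adjusted p = 0.163). The kinase Plk3 rose 1.88-fold (0.91 ± 0.23, adjusted p = 0.0442, and 0.97 against C4, adjusted p = 0.152) and the mTORC1 inhibitor Ddit4 1.40-fold (0.48 ± 0.12, adjusted p = 0.0418, and 0.61 against C4, adjusted p = 0.0327). The sulfatase Sulf2 fell (-0.61 ± 0.11, adjusted p = 0.0187, and -0.53 against C4, adjusted p = 0.0615). Against C4 alone the calls of Bax, Fas, Gdf15, Plk3 and Sulf2 ended.

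Cyclins and CDKs, whose complexes CDK inhibitors block, moved in 1 direction where they were called. Of 12 tested cyclins, CDKs and genes of p27 turnover, 0 rose, 7 fell and 5 were not called. Over all named genes tested 9.90% rose and 11.9% fell. The list's median was -1.09, or -1.05 with C4 as the only sham array. Cyclin D1 (Ccnd1), which starts G1 progression, fell to -1.39 ± 0.20 in border zone, against 1.11 ± 0.30 in sham (SD, n = 3 each; log2 fold change -2.5 ± 0.20, adjusted p = 0.00209, and -2.17 against C4, adjusted p = 0.0151). The mitotic cyclin Ccnb2 fell (-2.22 ± 0.45, adjusted p = 0.0241, and -2.61 against C4, adjusted p = 0.0703), as did Ccna2 of S phase and G2 (-2.07 ± 0.28, adjusted p = 0.00804, and -2.38 against C4, adjusted p = 0.0352) and Ccnb1 (-1.87 ± 0.35, adjusted p = 0.0195, and -2.28 against C4, adjusted p = 0.0251). The other calls were the mitotic kinase Cdk1 (-1.78 ± 0.12, adjusted p = 0.00152, and -1.78 against C4, adjusted p = 0.0116), Ccne1 (-1.42 ± 0.20, adjusted p = 0.00889, and -1.09 against C4, adjusted p = 0.0394) and Skp2 (-0.66 ± 0.17, adjusted p = 0.0475, and -0.79 against C4, adjusted p = 0.0633). Against C4 alone the calls of Ccnb2 and Skp2 ended. Of the 12, 5 fell without M17, where 8.03% of all probes were called in either direction. Without M24 4 fell (6.51% of probes called), and without M25 2 fell (2.84%). Without C4 6 fell (40.8%), without C5 4 fell (7.84%) and without C6 8 fell (13.2%).

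Of 4 other CDK inhibitors tested, only Cdkn2c (p18) was called, and it fell (-1.39 ± 0.21, adjusted p = 0.0110, and -1.73 against C4, adjusted p = 0.0131). Among 8 GADD45 partners and stress kinases, 0 rose and only Map3k4, the kinase that GADD45 proteins activate, fell (-0.60 ± 0.13, adjusted p = 0.0286, and -0.63 against C4, adjusted p = 0.0723). Of 3 other growth arrest and DNA damage genes, Ddit4 alone was called, although 2 had an unadjusted limma p under 0.05. Ddit3 had a log2 fold change of -0.0072 ± 0.24 (adjusted p = 0.987, and -0.16 against C4). Of 11 genes of the BTG and TOB family and CCR4-NOT, 2 rose and 2 fell: Btg3 (0.89 ± 0.22, adjusted p = 0.0390, and 0.69 against C4, adjusted p = 0.197) and the methyltransferase Prmt1 (0.45 ± 0.11, adjusted p = 0.0428, and 0.58 against C4, adjusted p = 0.0346) rose, while Tob1 (-0.85 ± 0.13, adjusted p = 0.0105, and -1.04 against C4, adjusted p = 0.0162) and the scaffold Cnot1 (-0.50 ± 0.12, adjusted p = 0.0378, and -0.38 against C4, adjusted p = 0.108) fell. Of 13 transcription factors known to act on GADD45 and CDKN1 genes, 4 rose and 0 fell, with a median of 0.85, 0.40 against C4 alone: Myc (4.37 ± 0.11, adjusted p = 0.000371, and 4.28 against C4, adjusted p = 0.00353), Atf3 (3.13 ± 0.66, adjusted p = 0.0276, and 2.49 against C4, adjusted p = 0.140), Stat3 (1.33 ± 0.17, adjusted p = 0.00738, and 1.49 against C4, adjusted p = 0.0351) and Cebpb (1.17 ± 0.20, adjusted p = 0.0166, and 1.56 against C4, adjusted p = 0.0126). Against C4 alone the calls of Map3k4, Btg3, Cnot1 and Atf3 ended. Of all named genes tested 21.8% were called (9.9% rose and 11.9% fell). Across the 9 lists 27 different genes were called, where 19.3% of all probes tested were called. The number was 17 without M17 (8.03% of probes called), 10 without M24 (6.51%) and 5 without M25 (2.84%). It was 37 without C4 (40.8%), 11 without C5 (7.84%) and 22 without C6 (13.2%).

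**Figure D4:**
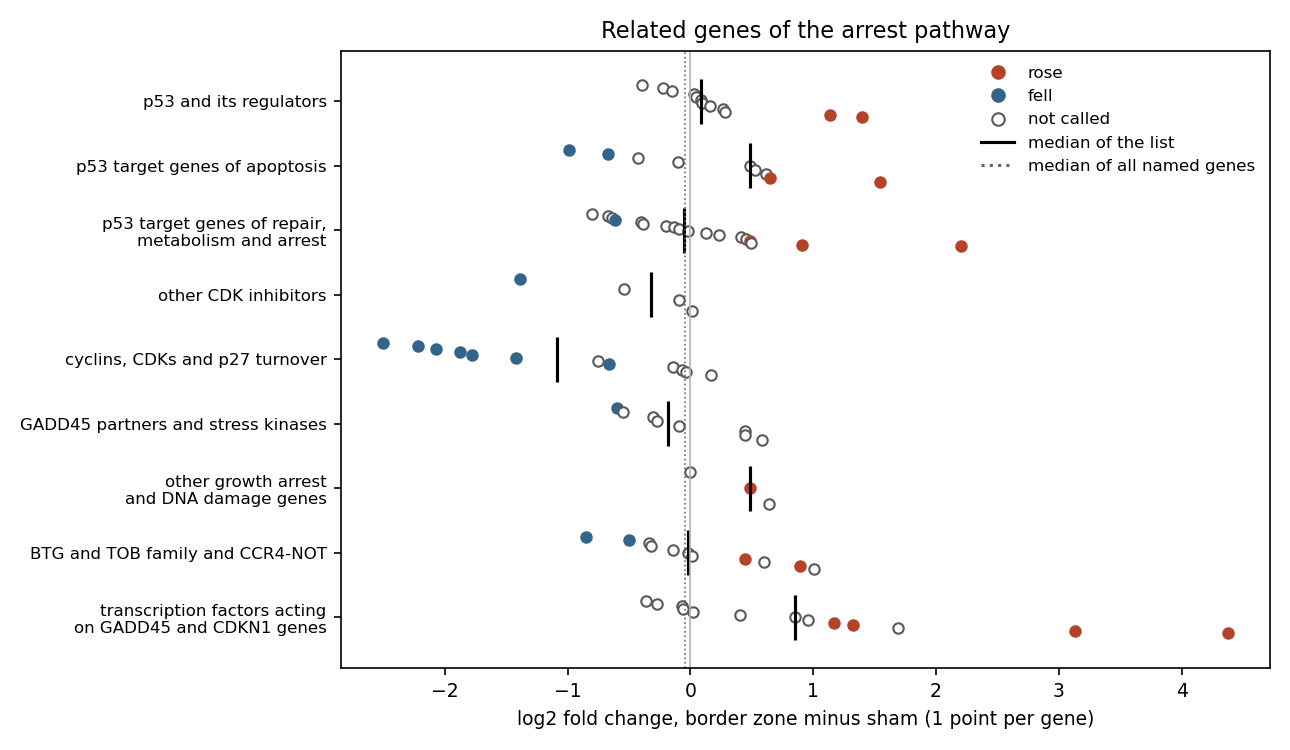
Log2 fold change (x axis, border zone minus sham) of each tested gene of 9 related gene lists (y axis), with filled red points for genes that rose, filled blue points for genes that fell and open points for genes not called; black bars are list medians and the dotted line is the median of all named genes. The cyclins and CDKs have 7 blue points and no red one, and the p53 lists have points on both sides of 0.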

How the data were processed

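Messenger RNA was measured on 6 arrays, 3 border zone and 3 sham. The deposited spot signals are intensity values from Agilent Feature Extraction 11.0.1.1, taken as the processed signal, per the file headers; flags per spot are as deposited. The authors' value table is on the log2 scale (column medians 5.53 to 5.54; its centring is not stated) and served only as an alternative.

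Control and outlier spots were left out, spots of a probe were averaged, and log2 processed signals were set relative to the 75th percentile of each array. Of 24684 probes, 24614 had a usable spot on all arrays, and 17930, each with signal called above background throughout 1 group or both, were tested with limma 3.58.1 in R 4.3.3 (lmFit and eBayes, two-sided, Benjamini-Hochberg over all probes tested). Of the named genes tested, 2806 entered through the border zone alone. Errors of fold changes are standard errors. Probes were named by RefSeq accession in a GRCr8 gene table; the array design is of build rn4, and no array coordinates were used. A gene was represented by its tested probe with the highest mean level. Where sham arrays were below background and were raised to the lowest signal called above it, the fold is a lower bound. The fit against C4 alone equals the fit with scan as a block, and its residual degrees of freedom, 2, come from border-zone arrays only. The normexp alternative used median spot signals. No label ties an array to a separate rat, so p-values measure the spread between arrays.

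The genes, lists and motifs were chosen with earlier results of these data known. The naming rule took all 9 genes, up to 4 called genes per list by absolute fold, and the 3 nearest profiles for 4 genes; Ddit3 and the remaining called cell cycle genes were added after their values were seen. 1 gene of the lists is not reported here by name. Tests were checked on simulated data. Promoter windows are RefSeq sequence. Tables and figures used Python 3.11.15, pandas 2.3.3, scipy 1.17.1 and matplotlib 3.10.9.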

Additional observations from a re-analysis of the deposited data

How the results depend on the processing

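Gadd45a, Gadd45g and Btg2 kept direction and call under 14 of 15 alternatives. The exception was the fit without M25 and with C4 as the only sham array. There 0 of the 9 genes, 76 probes and 1 listed gene were called. The log2 fold changes were 1.9 (Gadd45a), 1.89 (Gadd45b), 2.05 (Gadd45g), 1.31 (Cdkn1a) and 1.24 (Btg2). That fit holds fewer arrays, and why the calls ended there was not tested. With all sham arrays kept, 1439 probes were called without M17, 1167 without M24 and 509 without M25. Gadd45b lost its call with scan as a block or C4 as the only sham array, which are the same fit (1.96). It also lost its call with no filter on dim probes (1.96 ± 0.42, limma adjusted p = 0.0531). In that fit more probes were tested and the standard error was larger than the 0.40 of the main fit, and the cause was not tested. Btg1 gained a call with scan as a block (0.83, adjusted p = 0.0215). Ccng1 reversed sign with scan as a block (-0.086, adjusted p = 0.668) without M25 against C4 (-0.058, 0.910), without M17 (-0.066, 0.836) and without C5 (-0.14, 0.534); the cause was not tested. Leaving out each array in turn gave 509 to 7308 probes called, 3 to 6 of the 9 genes, 5 to 37 listed genes, and log2 fold changes of 1.60 to 2.40 for Gadd45b, 0.95 to 1.18 for Cdkn1a, -0.64 to -0.41 for Cdkn1b and -0.14 to 0.094 for Ccng1. Cdkn1b was called without C4. Without a filter 1826 probes and 14 listed genes were called, and with normexp 2293 probes. Median scaling shifted the centre of all probes (median log2 fold) to 0.16, against -0.026, and made 67.6% of calls higher, against 46.7%; quantile scaling gave 0.094 and normexp -0.35, and no direction of a called gene among the 9 turned. No paired analysis was possible because the groups share no replicate number.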
